A study of Mus musculus with 3 samples.

Results

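The macrophages of 6 M DTR flexor digitorum longus (FDL) tendons were compared with those of 6 M WT tendons by single-cell RNA sequencing (scRNAseq), with 1 library per genotype, below called DTR and WT. A cell was taken as a macrophage on its own counts of unique molecular identifiers (UMIs), each of which stands for a captured transcript. It had to carry at least 10 UMIs of the complement genes *C1qa*, *C1qb* and *C1qc*, at least 5 UMIs of the receptor adaptors *Tyrobp* and *Fcer1g*, and fewer than 10 UMIs of the tenocyte genes *Tnmd*, *Fmod*, *Kera* and *Cilp2*. The study's filter was applied first, which keeps barcodes showing 1000 to 5000 genes with no more than 10% of UMIs from mitochondrial genes. By this rule 501 of 8357 cells of 6 M WT and 1035 of 6554 cells of 6 M DTR were macrophages, 1536 cells in all among the 19709 cells kept in the 3 libraries of the series. The third library, 21 M B6 (below B6), held 451 macrophages and is set beside the others as values.

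The DTR mice carried Scx-Cre and a floxed diphtheria toxin receptor allele (Scx-Cre+; DTR F/+). Diphtheria toxin (DT) therefore kills cells whose lineage has used the *Scx* promoter, the tenocytes among them. The WT mice were Cre-negative and carried the same receptor allele (Scx-Cre-; DTR F/+), and both genotypes were given 5 daily DT injections. The study lists the receptor allele as a C57BL/6 stock and does not state the background of the Scx-Cre line. The B6 mice, 21 months old, were C57BL/6J animals without the alleles and without DT. By the study's methods the injections began at 3 months of age and the harvest followed 3 months after them, whereas the sample labels give 3 months as the age of both libraries. Each library came from 16 pooled FDL tendons of mice of both sexes, so the spread between animals was not measured. Tendons of WT were digested for 120 min and those of DTR for 90 min, and the effects of digestion time and genotype cannot be told apart. With 1 library per group no difference could be tested, no p-value was computed, and intervals below are exact 95% intervals for counting error only.

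Macrophages are the main phagocytes of connective tissue. They clear dead cells and matrix fragments, release cytokines and chemokines, and present peptides to T cells on MHC class II molecules. Many tissues hold long-lived resident macrophages that carry scavenger receptors such as *Lyve1*, *Cd163* and *Timd4*, beside cells that arise from blood monocytes, whose chemokine receptor is encoded by *Ccr2*. Macrophages that take up much lipid or debris are known to express *Apoe*, *Spp1*, *Fabp5* and *Gpnmb*.

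The libraries held 148149903 UMIs in 15536 barcodes for WT and 123918145 UMIs in 16099 barcodes for DTR. The macrophages among them held 8555251 UMIs in WT, 14671315 in DTR and 6658653 in B6, with medians of 16553, 13289 and 13899 UMIs per cell. The libraries of WT and DTR shared 76 barcodes, of which 1 was a macrophage in both. Sex was read from *Xist* and Y-linked genes, and among macrophages with a call 68.2% were female in WT and 40.1% in DTR. The sex of the macrophages thus moved with genotype, and ratios within cells called female and male are given beside several results. List medians within either sex are over the members with at least 20 CPM there.

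Macrophages made up 5.99% (5.50 to 6.53) of kept cells in WT and 15.8% (14.9 to 16.7) in DTR, with exact binomial intervals in brackets. The share in DTR was 2.63 (2.37 to 2.94) times that in WT, and B6 lay between them at 9.40%. A share of all cells is also set by the number of other cells. Cells called tenocyte-rich had at least 10 UMIs of the 4 tenocyte genes, fewer than 10 of the C1q genes and fewer than 5 of *Cd3d*, *Cd3e* and *Cd3g*. They numbered 5322 in WT and 2798 in DTR. More macrophages and fewer tenocytes cannot be told apart from shares. The count of macrophages itself also depends on how many cells were loaded.

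The cells chosen carried the defining markers of macrophages beyond those of the rule. All 20 genes of a macrophage identity list had at least 20 CPM, the unit used below for the UMIs of a gene summed over all macrophages of a library and scaled to a common total. *Csf1r*, the receptor for the macrophage growth factor CSF1, was detected in 494 of 501 macrophages of WT and in 1011 of 1035 of DTR. *Lyz2*, encoding lysozyme, was detected in 499 and 1033 of them. The median log2 ratio of the identity list was 0.09, and its members ranged from −0.31 to 0.54, so no identity gene differed by 2-fold. The genes that chose the cells stood at 2131 and 2125 CPM for *C1qa*, 936 and 866 CPM for *Tyrobp*, and 1435 and 1395 CPM for *Fcer1g* in WT and DTR. Few cells lay near the limits. Macrophages with only 10 to 14 UMIs of C1q genes numbered 10 in WT and 26 in DTR, while 13 and 25 cells with 5 to 9 such UMIs fell just outside. The limit on tenocyte UMIs removed 24 and 21 cells that met the other criteria.

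Most genes had nearly the same level in both libraries. In either library 5461 genes had at least 20 CPM. Without the genes of the macrophage rule and those set aside below as free RNA, 5427 genes were compared. Of these, 95.5% differed by less than 1.5-fold and the median log2 ratio of DTR over WT was −0.04. In DTR, 37 genes were 2-fold or more higher, which is 0.682% of the genes compared, and 46 were 2-fold or more lower, which is 0.848%. The named genes below are the 15 highest and 15 lowest ratios among 2865 genes with at least 50 CPM, together with members of the gene lists. They were picked by the comparison they are described with, so the values are a description.

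**Figure D1:**
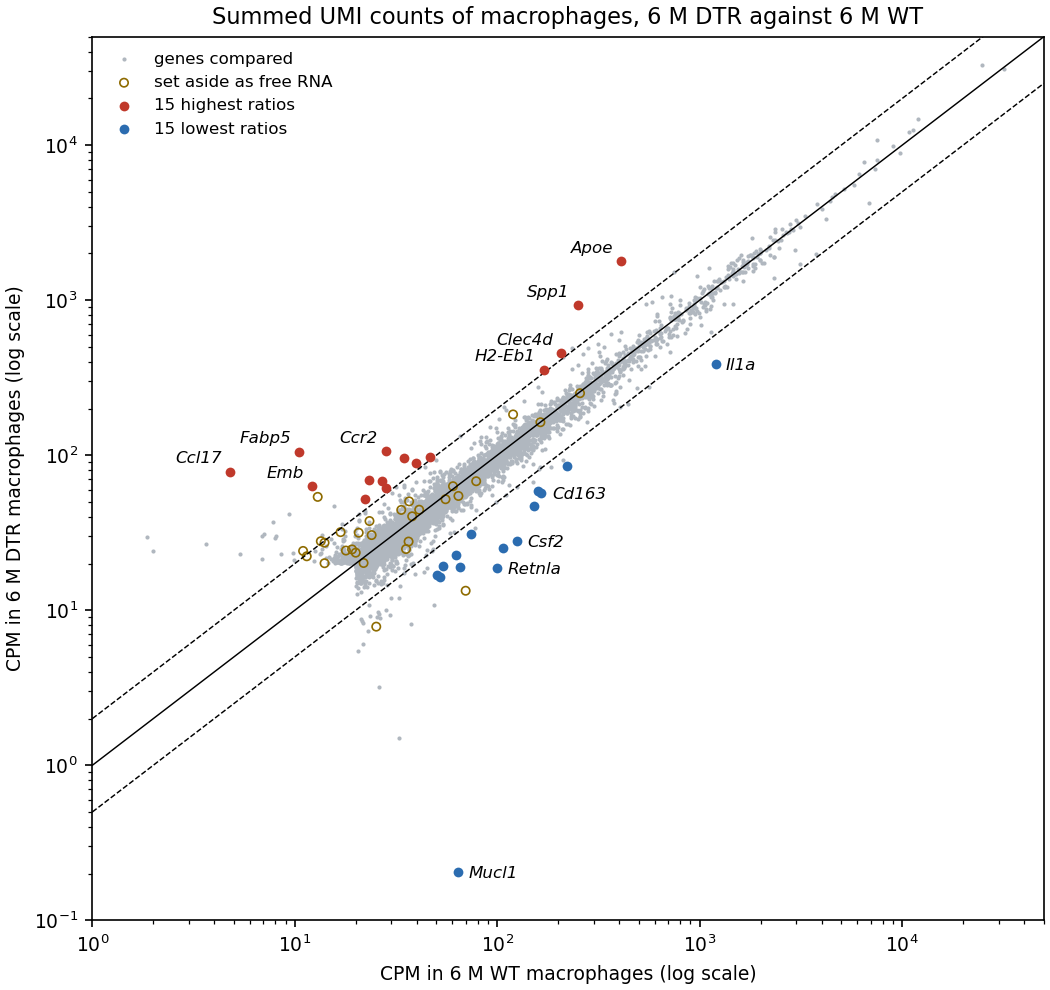
Summed UMI counts of macrophages as CPM on log axes, WT on the x axis and DTR on the y axis, with 1 point per gene; the solid line marks equal levels, the dashed lines 2-fold differences, and open circles the 29 genes set aside as free RNA. Most of the 5427 genes lie along the solid line, with *Apoe* and *Spp1* above and *Il1a* below the dashed lines.

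RNA released from broken tenocytes gives tenocyte UMIs in macrophages. Tenocyte genes such as *Comp* and *Col1a1* stood in macrophages at a median of 1.18% of their level over all barcodes in WT and 1.65% in DTR. Genes at up to 3 times this share were set aside as free RNA, which applied to 29 genes. Among them *Coch*, encoding the matrix protein cochlin, stood at 69.8 CPM in WT and 13.4 CPM in DTR, and *Aspn*, encoding asporin, at 13 and 53.8 CPM. These levels are not read as macrophage expression.

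Several scavenger receptors of resident macrophages were lower in DTR. Of 16 members of the tissue-resident list with at least 20 CPM, 3 were 2-fold or more lower, against 0.848% of all genes compared, none was 2-fold higher, 11 had a ratio under 1, and the median log2 ratio was −0.29. The median was −0.30 in cells called female, −0.07 in cells called male and −0.15 with both sexes given equal weight. *Vsig4* (ENSMUSG00000044206), encoding a complement receptor, stood at 107 CPM in WT, 25.4 CPM in DTR and 440 CPM in B6. The ratio of DTR over WT was 0.237 (0.209 to 0.267). The order of the libraries was thus B6, WT, DTR, and the same order held for the haemoglobin scavenger receptor *Cd163*, at 303, 165 and 57.2 CPM. The ratio for *Cd163* was 0.346 (0.318 to 0.377).

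*Timd4*, a receptor for phosphatidylserine on dying cells, stood at 23.6 CPM in WT, 9.20 CPM in DTR and 68.3 CPM in B6. Of its UMIs in DTR, 34.1% came from 1 cell. *Lyve1*, a hyaluronan receptor, stood at 1140 CPM in WT, 619 CPM in DTR and 1616 CPM in B6, a ratio of 0.543 (0.527 to 0.559) for the first pair. *Fcna*, encoding ficolin A, had a ratio of 0.540 (0.475 to 0.614). Other members of the list differed little. The folate receptor *Folr2* had a ratio of 0.838, the mannose receptor *Mrc1* of 0.811 and the chemokine *Pf4* of 1.10.

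The lower levels went with fewer positive cells. With each cell reduced at random to 2000 UMIs, which takes depth out of the share, *Vsig4* was detected in 11.2% (8.55 to 14.3) of macrophages of WT and 1.45% (0.81 to 2.38) of DTR. Without thinning, the shares were 19.0% and 2.90%. *Cd163* was detected in 17.8% (14.5 to 21.4) and 7.73% (6.18 to 9.53) of thinned cells. *Lyve1* was detected in 60.3% (55.8 to 64.6) of them in WT and 35.7% (32.7 to 38.7) in DTR. In tenocyte-rich cells, which should lack these receptors and had median depths of 13167 and 12766 UMIs, at most 0.71% of thinned cells were positive for any of the 3 genes in either library.

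**Figure D2:**
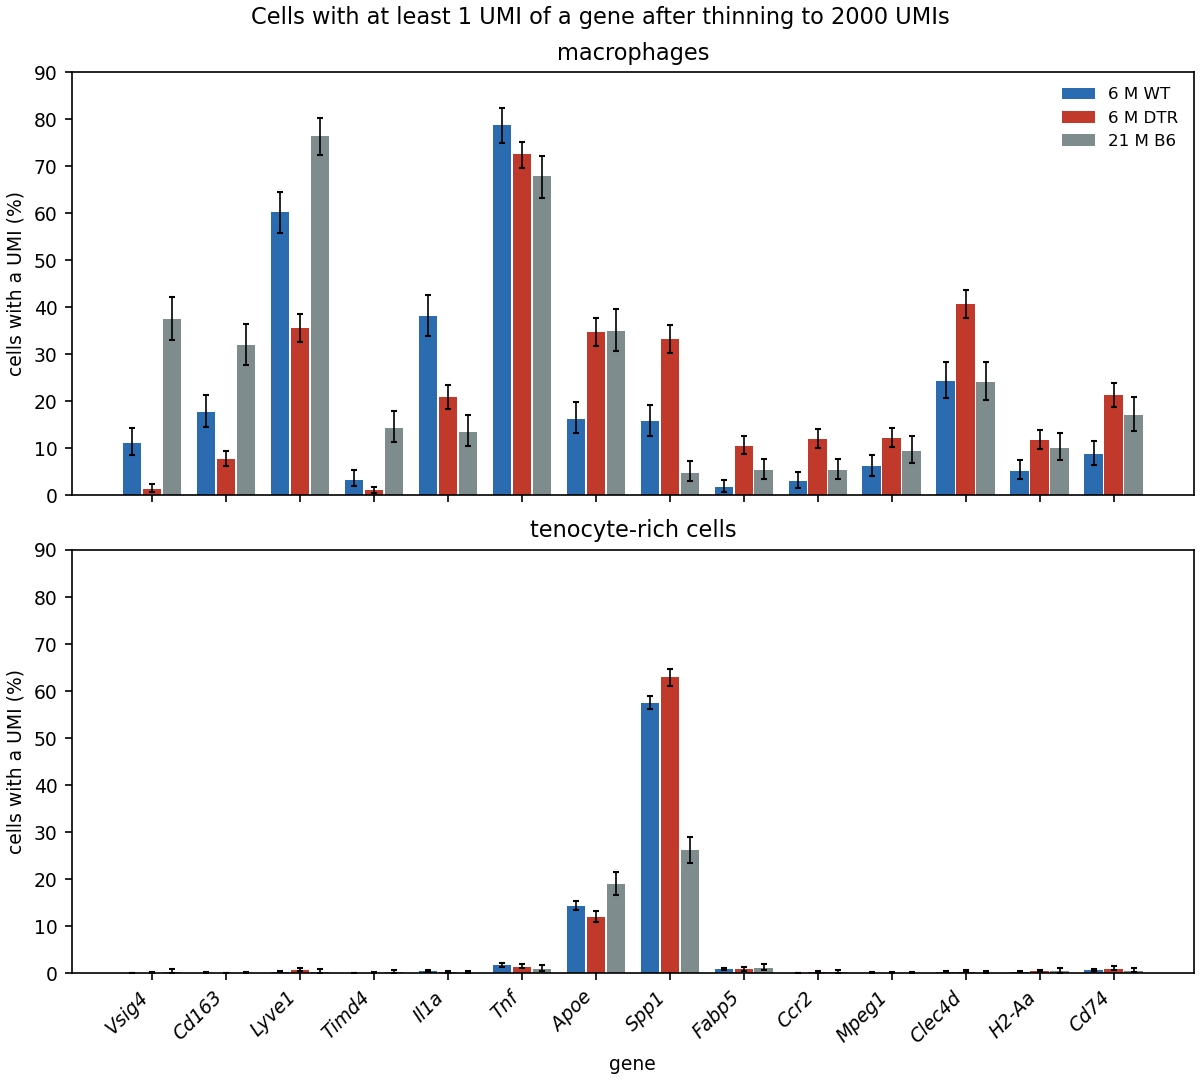
Share of cells with at least 1 UMI of each gene after thinning to 2000 UMIs, for macrophages above and tenocyte-rich cells below, in WT, DTR and B6; error bars are exact 95% binomial intervals. In macrophages *Lyve1* is highest in B6 and lowest in DTR, while *Apoe* is near 35% in DTR and B6 and 16.4% in WT; in tenocyte-rich cells only *Apoe* and *Spp1* stand well above 0.

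Genes of MHC class II presentation were higher in DTR. The list has 10 members, of which 6 had at least 20 CPM; all 6 had a ratio over 1 and 4 were 2-fold or more higher, against 0.682% of all genes compared, with a median log2 ratio of 1.03. *H2-Aa*, encoding the alpha chain of the I-A molecule, stood at 210 CPM in WT, 431 CPM in DTR and 416 CPM in B6, a ratio of 2.05 (1.95 to 2.16). Its partner chain *H2-Ab1* had a ratio of 2.08 (1.98 to 2.19), and *H2-Eb1*, the beta chain of I-E, stood at 170, 357 and 302 CPM with a ratio of 2.1 (1.98 to 2.22). The invariant chain *Cd74*, which holds the peptide groove until loading, stood at 746, 1516 and 1307 CPM. *H2-DMa* and *H2-DMb1*, which form the editor that exchanges peptides, had ratios of 1.82 (1.59 to 2.08) and 1.58 (1.39 to 1.80). In all 6 genes WT was the lowest of the 3 libraries.

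These UMIs were concentrated in a minority of cells. Macrophages with at least 0.5% of their UMIs from *H2-Aa*, *H2-Ab1*, *H2-Eb1* and *Cd74* numbered 16 of 501 in WT, which is 3.19% (1.84 to 5.13), and 100 of 1035 in DTR, which is 9.66% (7.93 to 11.6). In B6 they numbered 38 of 451. The cut of 0.5% is a point on a continuous range, and 3 and 52 cells of WT and DTR lay between 0.25% and 1%. Without these high cells the log2 ratio was 2.02 for *H2-Aa* and 1.34 for *Cd74*, from which nothing is read because the cells were set apart by the same genes. Among macrophages at or above the median share of these UMIs, the median log2 ratio of the list was 0.25. Among those below the median share it was higher. Nothing is read from this split either, because the same genes divided the cells. In cells called female *H2-Aa* stood at 202 CPM in WT and 669 CPM in DTR, and in cells called male at 224 and 288 CPM. The ratio was therefore 3.31 (3.08 to 3.55) in female and 1.29 (1.17 to 1.41) in male cells. The share of high cells in DTR and WT was 11.7% against 3.00% in female and 8.63% against 2.86% in male cells. In WT these shares rest on only 9 female and 4 male high cells. High cells were set apart by the same genes, so their share is no separate support. In WT 1 cell held 15.1% of all *H2-Aa* UMIs.

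The promoters of 3 measured MHC class II genes are shown because these genes stood higher together. MHC class II promoters are known to carry a Y box, bound by the factor NF-Y. The sequences are those of RefSeq on GRCm38.p6, the last 200 bases before the start site, 5′ to 3′ on the strand of the gene, in lower case with the letters GATTGG or their reverse CCAATC in capitals.
H2-Aa, chr17:34287824-34288023, minus strand: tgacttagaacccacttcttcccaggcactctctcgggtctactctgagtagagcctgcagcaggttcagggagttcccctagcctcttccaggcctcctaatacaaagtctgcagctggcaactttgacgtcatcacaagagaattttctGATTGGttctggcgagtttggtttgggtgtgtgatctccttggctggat
H2-Eb1, chr17:34305667-34305866, plus strand: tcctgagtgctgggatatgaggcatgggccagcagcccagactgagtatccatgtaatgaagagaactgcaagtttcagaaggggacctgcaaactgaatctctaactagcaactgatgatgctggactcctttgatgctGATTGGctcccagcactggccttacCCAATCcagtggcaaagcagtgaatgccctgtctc
H2-DMb1, chr17:34152991-34153190, plus strand: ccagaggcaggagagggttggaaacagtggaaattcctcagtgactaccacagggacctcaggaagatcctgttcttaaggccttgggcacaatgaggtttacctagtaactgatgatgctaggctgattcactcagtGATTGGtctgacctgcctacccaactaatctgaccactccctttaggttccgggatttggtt
Read on the strand of the gene, the letters began 49 bases before the start in *H2-Aa*, 60 in *H2-Eb1* and 62 in *H2-DMb1*, and *H2-Eb1* held a further copy in reverse. Of the 10 genes of the list 7 had an entry, namely these 3 with *H2-DMa*, *H2-DMb2*, *H2-Oa* and *H2-Ob*, and all 7 held the letters on either strand in at least 1 of their windows. *H2-DMa*, also measured, has 2 windows, of which 1 held no match and the other held the letters only at its far end, from position −199. *H2-Ab1*, *Cd74* and *Ciita* were not shown. Among all 32851 windows of the same length 12.9% held the letters, and a match describes the sequence only.

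Several genes of lipid handling were higher in DTR. Of 20 members with at least 20 CPM, 4 were 2-fold or more higher and 1 was 2-fold or more lower, against 0.682% and 0.848% of all genes compared, and 15 had a ratio over 1, with a median log2 ratio of 0.33. *Apoe*, the apolipoprotein that carries cholesterol out of macrophages, stood at 410 CPM in WT, 1780 CPM in DTR and 1822 CPM in B6. Its ratio was 4.34 (4.19 to 4.50), and DTR and B6 had close values while WT stood apart. *Fabp5*, a fatty acid binding protein, stood at 10.5, 106 and 30.6 CPM, a ratio of 10.0 (8.11 to 12.6). The ratio for *Fabp5* was 5.25 (3.95 to 7.09) in cells called female and 16.7 (10.5 to 28.4) in cells called male. *Hilpda*, a lipid droplet protein, stood at 26.9, 68.0 and 37.4 CPM. T cells held 503 CPM of *Hilpda* in WT and 639 CPM in DTR, and the part of T cell RNA in its difference was not tested. The phospholipid transfer protein *Pltp* had a ratio of 1.67 (1.60 to 1.74), *Lpl*, the lipoprotein lipase, of 1.5 (1.37 to 1.63), and the lipid receptor *Trem2* of 1.38 (1.32 to 1.43). *Ch25h*, which makes 25-hydroxycholesterol, went the other way, at 151 CPM in WT, 46.7 CPM in DTR and 40.4 CPM in B6. Its ratio was 0.177 (0.148 to 0.210) in female and 0.685 (0.578 to 0.815) in male cells.

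*Spp1*, encoding osteopontin, stood at 249 CPM in WT, 929 CPM in DTR and 48.1 CPM in B6, a ratio of 3.72 (3.56 to 3.90). Tenocyte-rich cells held far more of it, at 3498 CPM in WT and 5393 CPM in DTR. Its level in macrophages exceeded the limit set for free RNA, and the part of tenocyte RNA in it was not tested. The median macrophage had 0.39 *Spp1* UMIs per 10000 UMIs in WT and 1.03 in DTR, and the cell at the 90th percentile had 3.61 and 19.0.

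*Apoe* was detected in 16.4% (13.2 to 19.9) of thinned macrophages of WT and 34.8% (31.9 to 37.8) of DTR. Tenocyte-rich cells were positive in 14.3% and 12% of cases, so the share in WT macrophages was close to that of another cell type. *Fabp5* was detected in 1.80% (0.82 to 3.38) and 10.6% (8.82 to 12.7) of macrophages, against 0.86% and 0.82% of tenocyte-rich cells. Within DTR, *Fabp5* was found in 74 of 360 *Apoe*-positive macrophages and in 36 of 675 *Apoe*-negative ones, which is 20.6% and 5.3%. *Spp1* went the other way, in 29.2% of the *Apoe*-positive and 35.4% of the *Apoe*-negative macrophages of DTR. The shares were 64.7% and 59.1% for *Trem2*, and 12.5% and 11.9% for *Ccr2*. *Lyve1* was found in 31.7% of the *Apoe*-positive and 37.8% of the *Apoe*-negative macrophages of DTR, and in 69.5% and 58.5% of those of WT.

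Most lysosomal genes differed little, with a median log2 ratio of 0.09 over 27 members and 2 members 2-fold or more higher, against 0.682% of all genes compared. *Ctsh*, the protease cathepsin H, had a ratio of 2.04 (1.85 to 2.24). *Gpnmb*, a lysosomal glycoprotein, was seen in 12 cells at 1.87 CPM in WT and in 76 cells at 29.5 CPM in DTR. Of its UMIs in DTR, 41.3% lay in 1 cell, and tenocyte-rich cells held 68.5 and 76.0 CPM. Cathepsin S, encoded by *Ctss* and involved in class II presentation, had a ratio of 1.45 (1.42 to 1.49). *Ctsk*, encoding the collagen-degrading cathepsin K, stood at 108 and 203 CPM in WT and DTR macrophages, beside 195 and 462 CPM in tenocyte-rich cells. The acid phosphatase *Acp5* was lower, at 161, 81.8 and 25.8 CPM in WT, DTR and B6.

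**Figure D3:**
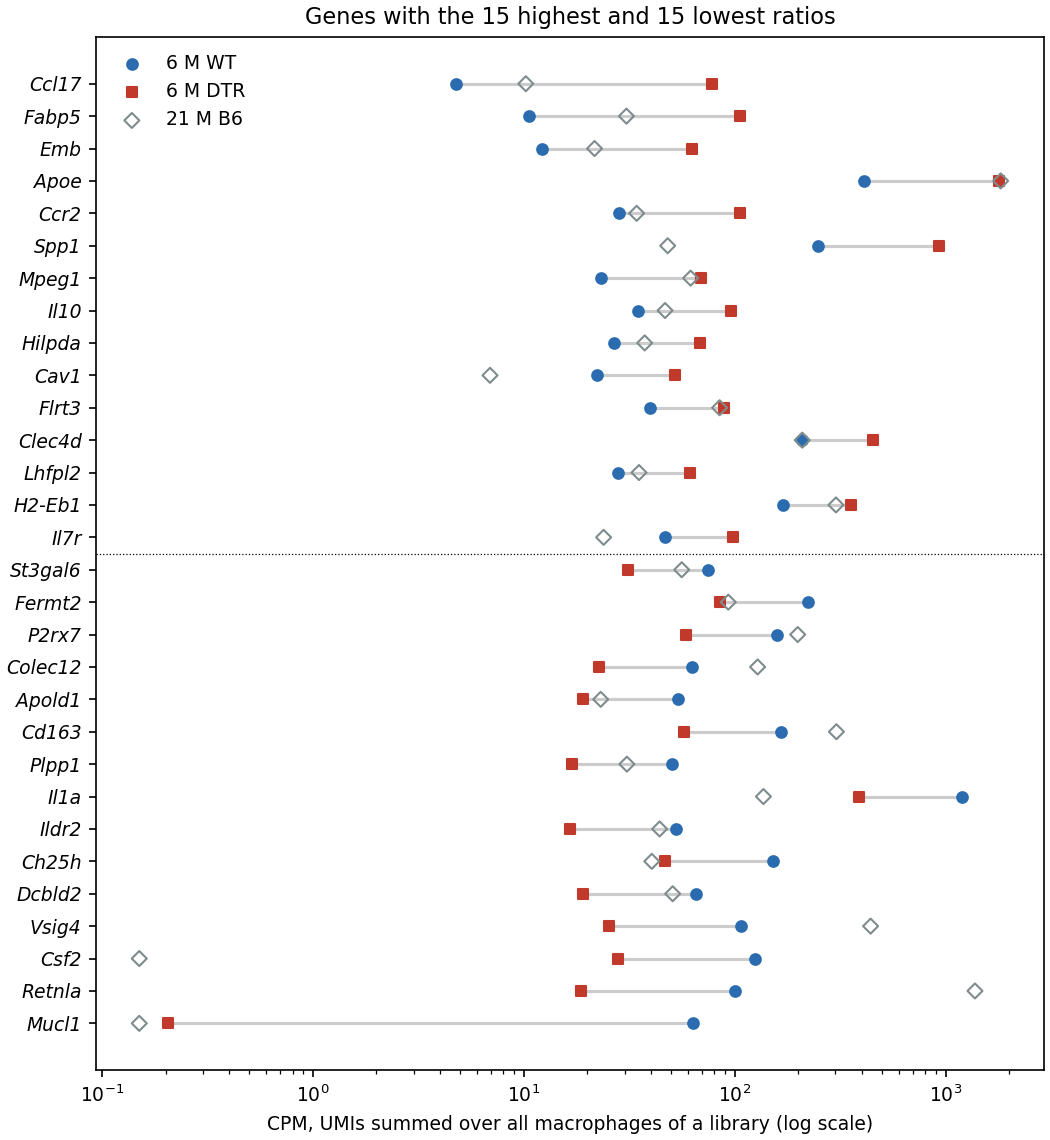
Levels of the 15 genes with the highest and the 15 with the lowest ratios of DTR over WT, in CPM on a log axis, with 1 symbol per library (WT, DTR and B6) and a grey line joining the 6 M libraries. *Apoe* in B6 coincides with DTR, whereas *Vsig4* and *Cd163* in B6 lie beyond WT on the side away from DTR.

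The monocyte chemokine receptor *Ccr2* was higher in DTR, at 28.2 CPM in WT, 106 CPM in DTR and 34.2 CPM in B6, a ratio of 3.76 (3.28 to 4.32). It was detected in 2.99% (1.69 to 4.89) of thinned macrophages of WT and 12.1% (10.1 to 14.2) of DTR. T cells also express *Ccr2*, at 444 and 394 CPM. Summed over the 16 genes of the T and natural killer cell list, macrophages held 4.56 CPM in WT and 29.4 CPM in DTR. None of these 16 genes reached 20 CPM. The part of T cell RNA in the difference of *Ccr2* was not tested. Among 9 chemokine receptors with at least 20 CPM, *Ccr2* alone was 2-fold higher, against 0.682% of all genes compared, and the median log2 ratio was 0.47. *Cxcr4*, the receptor for CXCL12, had a ratio of 1.67 (1.55 to 1.81), and *Cx3cr1*, the fractalkine receptor, of 1.42 (1.31 to 1.56). The receptors *C5ar1* for complement C5a and *Ccr1* stood lower, with log2 ratios of −0.39 and −0.37.

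Of 11 genes on the monocyte list 3 had at least 20 CPM, *Ccr2* among them, and 2 of these had a ratio over 1, with a median log2 ratio of 0.53. The other 8 were under 5 CPM in both libraries, and *Ly6c2*, the defining marker of classical monocytes, was seen in 1 cell of WT and 2 of DTR. Only cells with at least 10 C1q UMIs were taken, so these levels do not show how many monocytes the tendons held. *Vcan*, encoding versican, had a ratio of 1.45 (1.25 to 1.68).

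Inflammatory cytokines lay on both sides. Among 11 members with at least 20 CPM, 2 were 2-fold or more lower and 1 was 2-fold or more higher, against 0.848% and 0.682% of all genes compared, with a median log2 ratio of −0.18. The median was −0.67 in cells called female, 0.17 in cells called male and −1.05 in cells below the median MHC class II share, so its sign depended on the cells taken. *Il1a*, encoding interleukin-1 alpha, stood at 1198 CPM in WT, 387 CPM in DTR and 137 CPM in B6, a ratio of 0.323 (0.313 to 0.334). It was detected in 38.1% (33.8 to 42.5) of thinned macrophages of WT and 20.9% (18.4 to 23.5) of DTR, against at most 0.53% of tenocyte-rich cells. *Il1b* differed little in all cells, with a ratio of 1.04 (1.01 to 1.07), but stood at 0.729 (0.697 to 0.763) in cells called female and 1.47 (1.40 to 1.55) in cells called male.

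*Tnf* stood at 3771 CPM in WT, 1998 CPM in DTR and 1496 CPM in B6, a ratio of 0.530 (0.522 to 0.538). The share of thinned cells with *Tnf* was high in both, at 78.8% and 72.6%, and the level of the median cell was 16.5 and 9.28 UMIs per 10000. *Il10*, an anti-inflammatory cytokine, was higher, at 34.7, 96.4 and 46.7 CPM with a ratio of 2.78 (2.45 to 3.16). It came from 51 of 501 cells of WT and 134 of 1035 cells of DTR, and 20.5% of its UMIs in WT lay in 1 cell. After thinning, 3.39% (1.99 to 5.38) of WT and 5.70% (4.37 to 7.29) of DTR macrophages were positive, with overlapping intervals. *Csf2*, encoding GM-CSF, stood at 125 CPM in WT and 27.9 CPM in DTR, but came from 34 and 40 cells and 27.6% of its UMIs in WT lay in 1 cell. In cells called male its log2 ratio was 0.29, against −3.19 in cells called female. The TNF family ligand *Tnfsf9* had a ratio of 0.682 (0.662 to 0.702).

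Of 16 chemokines with at least 20 CPM, 6 had a ratio over 1 and 10 under 1, with a median log2 ratio of −0.12 in all cells, −0.46 in cells called female and 0.03 in cells called male. None was 2-fold lower, and 1 was 2-fold higher, against 0.682% of all genes compared. *Ccl2* stood at 6822 CPM in WT and 4211 CPM in DTR, *Ccl7* at 2335 and 1387 CPM, and *Ccl3* at 3129 and 1717 CPM, ratios of 0.617 (0.610 to 0.624), 0.594 (0.582 to 0.606) and 0.549 (0.539 to 0.558). Tenocyte-rich cells also held *Ccl2*, at 3767 and 2334 CPM. The neutrophil chemokine *Cxcl2* was nearly equal, with a ratio of 0.964 (0.959 to 0.968), whereas *Cxcl3* had a ratio of 1.45 (1.39 to 1.52). *Ccl17*, a ligand of CCR4, had the highest ratio of the genes ranked, 16.3 (11.9 to 22.9), at 4.79 and 78.2 CPM, but it was seen in 4 cells of WT and 20 cells of DTR, and 62.1% of the latter UMIs came from 1 cell. Its ratio was 1.97 (1.20 to 3.32) in female and 22.1 (13.3 to 39.6) in male cells. After thinning, 0.80% of WT and 0.58% of DTR macrophages were positive.

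**Figure D4:**
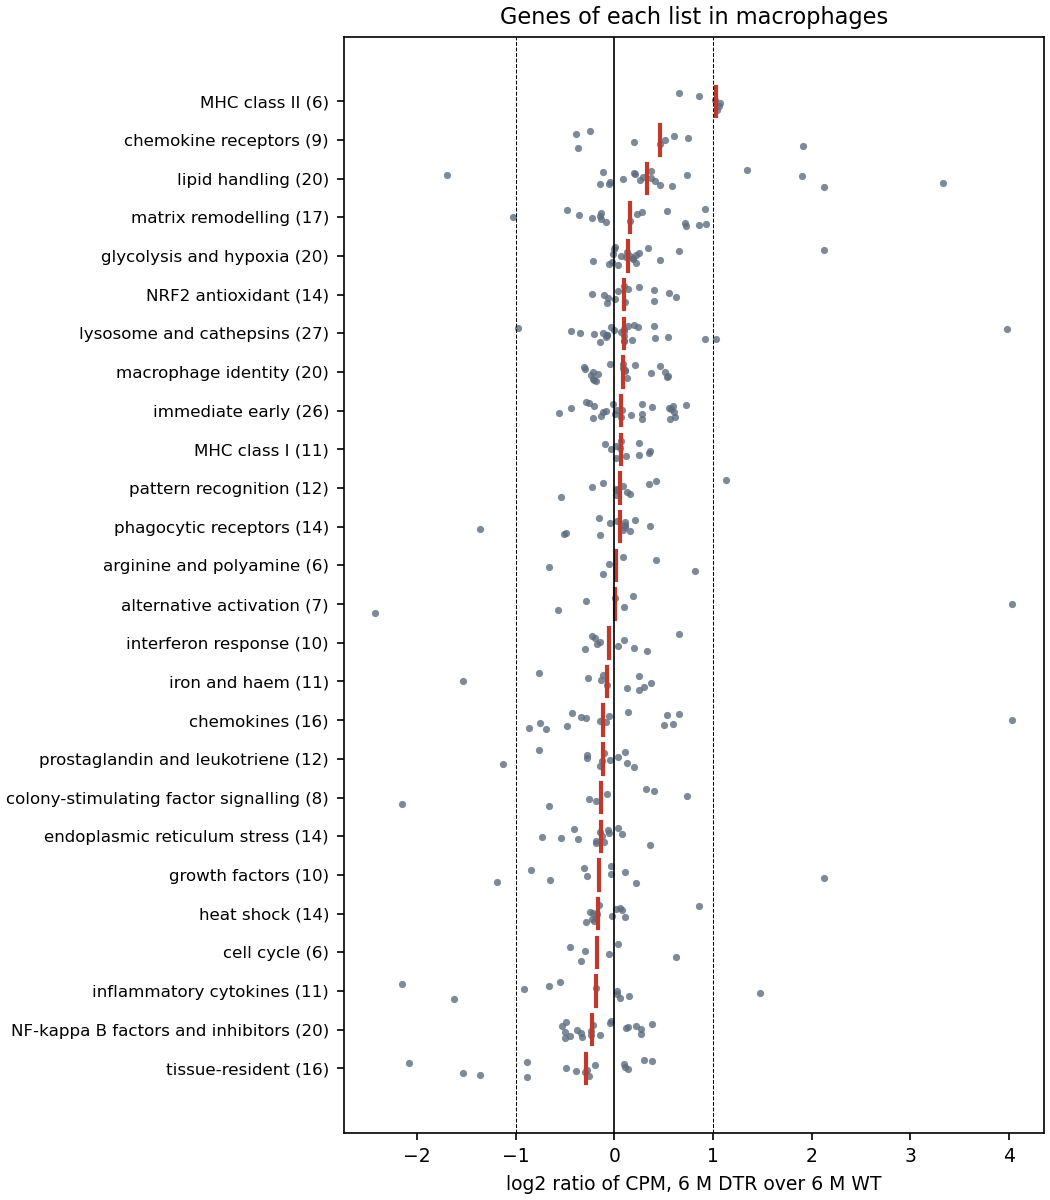
Log2 ratios of CPM, DTR over WT, of the genes of each list with at least 5 measured members, 1 point per gene, with the number of genes in brackets and the median as a red bar; dashed lines mark 2-fold differences. The MHC class II list has the highest median, 1.03, and the tissue-resident list the lowest, −0.29.

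Genes of alternative activation had no common direction, with 7 members measured and a median log2 ratio of 0.00, which was −0.48 in female and 0.21 in male cells. *Retnla*, the resistin-like protein induced by interleukin-4, stood at 100 CPM in WT, 18.7 CPM in DTR and 1376 CPM in B6. It came from 26, 34 and 143 cells, and 25% of its UMIs in WT lay in 1 cell. The lectin *Mgl2* had a ratio of 0.672 (0.589 to 0.766).

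Of 10 growth factor genes 7 had a ratio under 1, and of 12 prostaglandin and leukotriene genes 8 did, with median log2 ratios of −0.16 and −0.12. The median of all genes compared was −0.04, so a ratio under 1 was common. The growth factor median was −0.29 in female and 0.13 in male cells, and 1 growth factor gene was 2-fold lower and 1 higher, against 0.848% and 0.682% of all genes compared. Of the prostaglandin and leukotriene genes 1 was 2-fold lower, against the same 0.848%. *Pdgfa*, a mitogen for fibroblasts, stood at 77.6 CPM in WT and 34.1 CPM in DTR, a ratio of 0.439 (0.390 to 0.494), and *Pdgfb* had a ratio of 0.638 (0.594 to 0.685). *Vegfa*, the angiogenic factor, stood at 6.90 and 30.0 CPM in 36 and 185 cells. After thinning, 0.998% and 4.35% of macrophages of WT and DTR were positive for *Vegfa*, against 10.4% and 8.72% of tenocyte-rich cells. The part of tenocyte RNA in its difference was not tested. *Hpgds*, the prostaglandin D2 synthase of haematopoietic cells, stood at 184, 84.0 and 178 CPM in WT, DTR and B6. *Hpgd*, which inactivates prostaglandins, had a ratio of 0.588 (0.555 to 0.623). *Plau*, encoding the urokinase-type plasminogen activator, stood at 563, 276 and 313 CPM, and tenocyte-rich cells held 185 and 173 CPM of it. It was the only 2-fold difference among 17 matrix remodelling genes, against 0.848% of all genes compared. Their median log2 ratio was 0.16 in all, −0.17 in female and 0.21 in male cells.

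The remaining genes with the highest ratios were *Emb*, *Mpeg1*, *Cav1*, *Flrt3*, *Clec4d*, *Lhfpl2* and *Il7r*. *Mpeg1*, the pore-forming protein perforin-2 of phagocytes, stood at 23.3 CPM in WT, 69.5 CPM in DTR and 61.7 CPM in B6. *Clec4d*, a C-type lectin that recognises fungal and mycobacterial glycolipids, stood at 207, 454 and 209 CPM and was detected in 24.4% (20.7 to 28.3) and 40.7% (37.7 to 43.7) of thinned macrophages of the 6 M libraries. *Emb*, a cell adhesion glycoprotein, had a ratio of 5.18 (4.22 to 6.40) at 12.2 and 62.9 CPM. However, T cells of WT and DTR held 2320 and 2496 CPM of it, and tenocyte-rich cells 106 and 148 CPM. *Il7r*, the interleukin-7 receptor, is also a T cell gene, with 1318 and 1200 CPM there, and stood at 46.6 and 97.7 CPM in macrophages. *Cav1*, the caveolae protein caveolin-1, stood at 22.3 and 52.3 CPM, beside 215 and 138 CPM in tenocyte-rich cells. Its ratio was 1.48 (1.18 to 1.85) in female and 6.03 (4.00 to 9.50) in male cells.

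Among the lowest ratios, *P2rx7*, the ATP-gated channel upstream of inflammasome activation, stood at 159 CPM in WT, 58.5 CPM in DTR and 199 CPM in B6. *Fermt2*, the integrin activator kindlin-2, stood at 222, 85.3 and 93.1 CPM, and *Dcbld2* at 65.6, 19.0 and 50.8 CPM. Tenocyte-rich cells of WT and DTR held 230 and 290 CPM of *Fermt2*, and 46.8 and 40.1 CPM of *Dcbld2*. *Colec12*, a scavenger receptor, and *Plpp1*, a lipid phosphatase, had ratios of 0.363 (0.316 to 0.417) and 0.334 (0.285 to 0.392), and both had higher CPM in tenocyte-rich cells than in macrophages. *Ildr2*, *Apold1* and *St3gal6* ranged from 0.315 to 0.419. *Mucl1* had the lowest ratio, but 544 of its 545 UMIs in WT lay in 1 cell, so this value describes a single cell.

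Several programmes showed no large difference. None of 20 NF-kappa B genes, 26 immediate early genes, 10 interferon response genes, 11 MHC class I genes, 14 heat shock genes, 14 genes of endoplasmic reticulum stress or 14 NRF2 antioxidant genes reached a 2-fold difference. Their median log2 ratios were −0.22, 0.07, −0.06, 0.07, −0.17, −0.14 and 0.10. Within the immediate early list the largest ratios were those of *Klf2*, at a log2 ratio of 0.73, and *Jun*, at 0.62, and *Egr3* was lowest at −0.56. Among NF-kappa B genes *Nfkb1* and *Tnip1* were lower, with log2 ratios of −0.50 and −0.53, and the inhibitor *Nfkbia* was higher at 0.27. The 20 glycolysis and hypoxia genes had a median of 0.14. Of them *Vegfa* was 2-fold or more higher, 1 gene against 0.682% of all genes compared. It is the same gene as the 1 higher growth factor above. The 14 phagocytic receptors had a median of 0.06, and 1 of them, *Timd4*, was 2-fold or more lower, against 0.848%. *Timd4* is also among the 3 lower genes of the tissue-resident list. In cells called female and male the median was 0.05 and −0.28 for interferon response genes, and 0.28 and 0.07 for MHC class I genes. The interferon response genes *Cxcl10* and *Isg15* had log2 ratios of 1.64 and 1.22 in female cells, and of −0.43 and −0.28 in male cells.

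Defining markers of other immune cells were at low levels in both libraries. No gene of the T and natural killer cell, B and plasma cell, neutrophil, dendritic cell or mast cell lists reached 20 CPM in either library. Summed over their lists, neutrophil genes gave 34.1 CPM in WT and 8.38 CPM in DTR, and dendritic cell genes 17.8 and 23.2 CPM, and all 12 dendritic cell genes were under 5 CPM in both. The 20 tenocyte genes summed to 467 and 479 CPM, the 14 epitenon and fibroblast genes to 796 and 781 CPM, and the 11 endothelial and mural genes to 78.0 and 72.9 CPM. The skeletal muscle gene *Acta1* stood at 3.62 CPM in WT and 26.9 CPM in DTR, and its part in the other differences was not tested. Haemoglobin genes summed to 4395 CPM in WT and 3884 CPM in DTR, where for *Hbb-bs* 46.1% and 24.5% of the UMIs lay in 1 cell of each library.

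**Figure D5:**
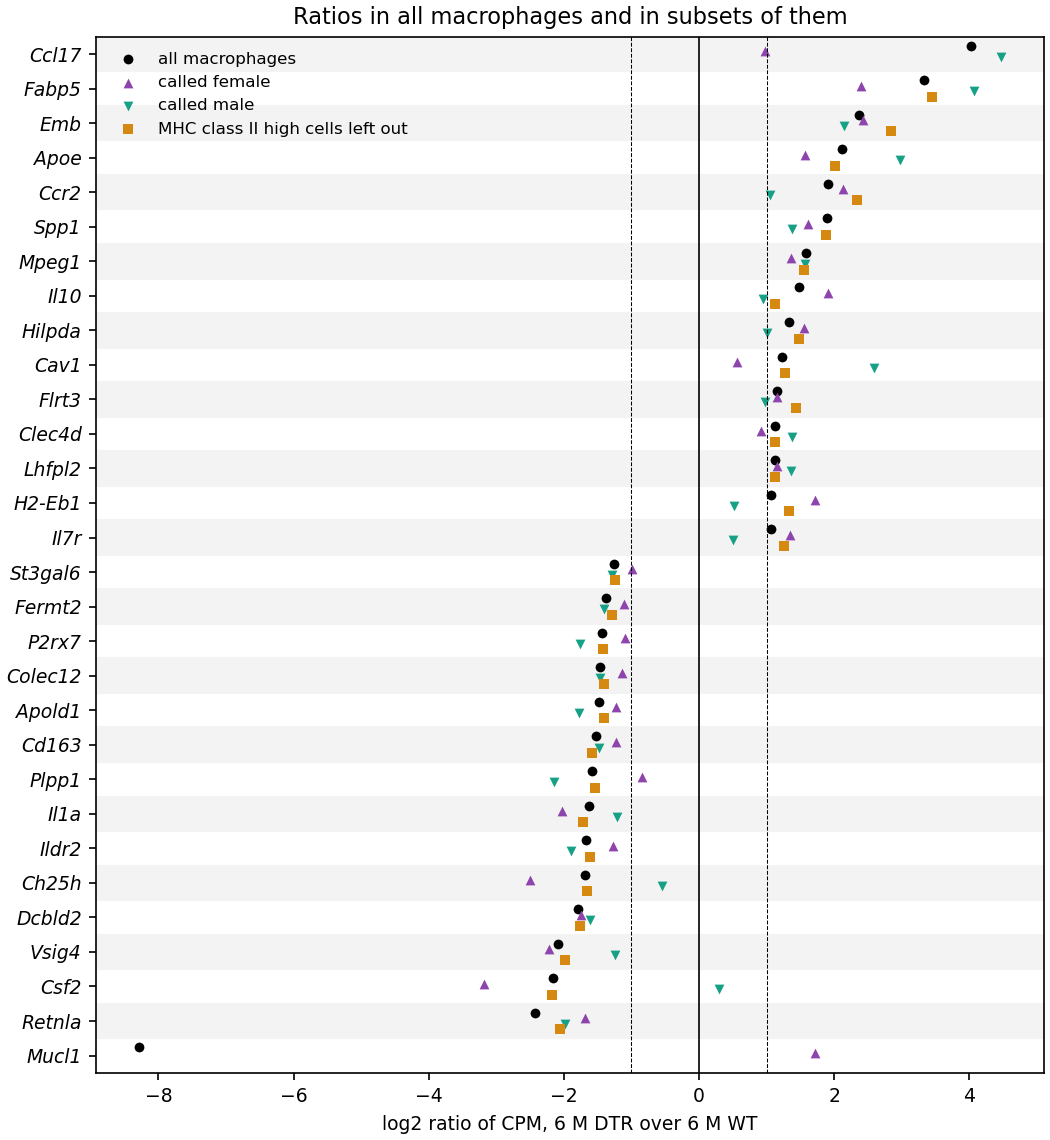
Log2 ratios of CPM, DTR over WT, of the 30 named genes in all macrophages, in cells called female, in cells called male and without MHC class II high cells; dashed lines mark 2-fold differences. The symbols of most genes lie on 1 side of 0, with *Csf2* in male cells and *Mucl1* in female cells on the other.

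The direction of most named genes was the same within cells called female and within cells called male. These genes were picked by their ratio in all macrophages, so agreement in parts of the same cells is no separate support. *Vsig4* had a ratio of 0.214 (0.177 to 0.259) in female and 0.422 (0.344 to 0.518) in male cells, and *Cd163* of 0.428 and 0.358. *Apoe* had ratios of 2.97 (2.84 to 3.11) and 7.88 (7.22 to 8.61), *Spp1* of 3.05 and 2.59, *Ccr2* of 4.40 and 2.07, and *Il1a* of 0.245 and 0.430. The intervals given here cover counting error only, and the difference between the sexes was not tested. Male cells of WT numbered 140. Without the MHC class II high cells the log2 ratios were 2.02 for *Apoe*, 2.34 for *Ccr2*, −1.99 for *Vsig4* and −1.72 for *Il1a*.

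Beside the 6 M libraries, macrophages of B6 did not hold 1 place for all these groups. For *Apoe*, *H2-Aa* and *Mpeg1* their level was near that of DTR, for *Ccr2* and *Clec4d* near that of WT, and for *Vsig4*, *Cd163*, *Timd4* and *Lyve1* above that of WT, on the far side from DTR. *Spp1*, *Il1a* and *Tnf* were lower in B6 than in either 6 M library. The B6 tendons were digested for 90 min, as were those of DTR.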

How the data were processed

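Single-cell suspensions of pooled FDL tendons were sequenced by the authors with 10x Genomics Chromium 3′ chemistry, and the deposited matrices hold raw UMI counts for each gene in each barcode, not normalized. The file headers name Cell Ranger 6.0.1 and the submitters' processing notes version 2.1.1; the genome build is not given in the sources used here. From these counts, cells were kept with 1000 to 5000 genes and at most 10% mitochondrial UMIs, as in the study, and macrophages were chosen by the UMI rule given above.

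UMIs were summed over the macrophages of each library and expressed as CPM. Genes with at least 20 CPM in WT or DTR, apart from rule genes and free RNA genes, were compared. The measure was the ratio of CPM with its exact 95% interval from both counts. Each group has a single library, so nothing was tested. Shares carry exact binomial (Clopper-Pearson) intervals; as cells of 1 library are not replicates, all intervals cover counting error only. A gene was set aside as free RNA if its macrophage level was at most 3 times the median share, over 7 tenocyte genes, of the level over all barcodes. Named genes were the 15 highest and 15 lowest ratios at 50 CPM or more, without rule, sex-linked, mitochondrial, ribosomal protein and free RNA genes, and list members at 20 CPM or more. Genes named outside this rule were chosen after their values were seen. The members and lists were chosen with earlier results of these data known. Cells were called female on *Xist* UMIs without Y-linked ones, and male on the opposite. Shares of positive cells were counted after thinning each cell to 2000 UMIs.

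The paper names no doublet caller. Scrublet at its own threshold marked 1 kept cell in WT, 73 in DTR and 1 in B6, so it did not work for 2 libraries; doublets were kept, and removal of the 5% highest scores was tried as an alternative. Other alternatives changed the filters, the rule, the scaling, the free RNA limit, the sex and MHC class II level of the cells, and the thinning. Some genes are not reported here. The calculation was checked on simulated counts. Software was Python 3.11.15 (pandas 2.3.3, numpy 2.4.6, scanpy 1.11.5, scipy 1.17.1, matplotlib 3.10.9) and R 4.3.3 (edgeR 4.0.16, for TMM factors only).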

Additional observations from a re-analysis of the deposited data

Results flagged for a closer look

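In 16 genes of the lists reported here the ratio of DTR over WT lay on opposite sides of 1 in macrophages called female and male, with both counting intervals off 1. How many of all genes compared did so is not given here, so the number is a description only. The difference between the sexes was not tested, since each genotype has 1 library and cells are not replicates. Values are the log2 ratio in female cells minus that in male cells. Among cytokines and chemokines they were −1.02 for *Il1b*, −0.482 for its antagonist *Il1rn*, −0.854 for *Ccl9* and 2.07 for *Cxcl10*. The interferon-induced *Isg15*, which was higher in female and lower in male cells like *Cxcl10*, had 1.49. Transcription factors had −1.27 for *Egr2*, 0.986 for *Fosb*, 0.312 for *Klf6* and −0.501 for *Hif1a*. Receptors, enzymes and inhibitors had −1.01 for the lectin *Clec4n*, −0.663 for *Cbr2*, −0.869 for the prostaglandin synthase *Ptgs2* and −0.552 for *Tnip3*. Matrix and growth factor genes had −0.807 for *Fn1*, −0.558 for *Hbegf* and 0.397 for *Areg*. In all macrophages none of these genes differed by 2-fold.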

How the results depend on the processing

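Of 78 alternative values of the main results, 72 stayed within the limits set. These limits were wide, and counts from 28 to 51 higher genes and from 43 to 63 lower genes lay within them. The count of 63 came from cells thinned to 5000 UMIs. The counts of 37 higher and 46 lower genes became 20 and 22 with a minimum of 50 CPM, 116 and 119 with a minimum of 5 CPM, and 107 and 136 at 1.5-fold. The ratio of macrophage shares ranged from 2.46 without an upper limit of genes to 2.71 with under 3 tenocyte UMIs. Over 19 settings, where they gave a value, 28 of 30 named genes kept their direction. The settings reuse the cells by which these genes were picked, so this is no separate support. *Mucl1* reversed to a log2 ratio of 1.71 in female cells, and to the same value with sexes weighted equally, because male cells gave none. *Csf2* reversed to 0.29 in male cells. The difference in positive share of *Ccl17* became 1.13 percentage points without thinning. *Vsig4* ranged from −3.77 without the 1% of cells with most of its UMIs to −1.17 in cells with little MHC class II, and *H2-Eb1* from 0.18 to 1.79. Below and above the median MHC class II share, which nearly separates cells without and with any such UMI, its log2 ratio was 0.18 and 0.28. Nothing is read from these values, because *H2-Eb1* is among the genes that divided the cells. The 5% of doublet scores, the trimming, the MHC class II high cells and the equal weights were chosen after seeing the data. No paired analysis was possible because each group has 1 library. Replicates could not be left out for the same reason.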
